A study of Mus musculus with 8 samples.

Results

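The comparison described here is that of Ovol1/2 iDKO with control mouse epidermis at 25 DPI, chosen by the titles of the samples and held in 4 of the 8 libraries of the series, 2 biological replicates labelled iDKO and 2 labelled control. Every gene of the count tables was considered, and 17839 passed the filter on low counts. The labels write iDKO and DPI without spelling them out, and the alleles, the Cre or other driver, the agent of induction, the age and whether a replicate was 1 animal or a pool are not stated in the labels. The control animals are described only as control. The epidermis had been isolated from skin with trypsin, and RNA was made into libraries with a kit for very small inputs.

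The Ovol proteins are DNA-binding zinc finger factors of epithelial cells and act mainly as repressors. In skin they are known to restrain genes of the mesenchymal state, Zeb1 among them, and to help keratinocytes leave proliferation for terminal differentiation. Keratinocytes are also the first source of cytokines when the skin is disturbed, through NF-kappaB, a family of transcription factors held inactive by inhibitors that are themselves NF-kappaB targets.

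The 4 libraries held 9824307 to 50711381 counts, the smallest being the replicate 1 library labelled iDKO. In the replicate 2 libraries 95.4% and 95.6% of the strand-assigned counts lay on the second strand, and in the replicate 1 libraries 49.97% and 49.8%, so the replicate numbers also mark a difference in how the libraries were made or read. Each library labelled iDKO was therefore set beside the control of its own number, as pair 1 and pair 2, and a pair ratio is the log2 of iDKO over control with 0.5 CPM (counts relative to library size, scaled by TMM) added to each. Keratin genes of basal keratinocytes were abundant in all 4 libraries, with Krt14 at 11220 and 9884 CPM in the controls and 21610 and 12810 CPM under the iDKO label.

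Ovol1 was at 134.9 and 36.3 CPM in the controls and at 148.1 and 204.0 CPM in the iDKO-labelled libraries, and Ovol2 at 24.9 and 11.6 CPM and at 44.6 and 16.7 CPM. Counts of the targeted genes were thus higher in the library labelled iDKO of each pair, with pair ratios of 0.13 and 2.47 for Ovol1 and 0.83 and 0.50 for Ovol2. Which exons were modified is not given, and a whole-gene count can miss an exon's removal, so the labels stand unchecked and every direction below is that of the iDKO-labelled libraries. Neither gene was called by DESeq2 with the replicate number as a block (adjusted p = 0.301 and 0.567). With pair 2 alone, a fit added after seeing the data and described below, Ovol1 was called higher (adjusted p = 5.95e-08, DESeq2), and with pair 1 alone it was not (0.911).

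Genes with higher counts under the iDKO label in both pairs included the mesenchymal factor Zeb1, the procollagen folding genes Fkbp14 and P3h1, and the immune regulators Nod2 and Zc3h12a, and those with lower counts the hair keratin gene Krt32. No gene passed the main test, and these calls come from an alternative fit, DESeq2 with a replicate block. Of the genes named here, Zeb1 and Fkbp14 were also called by DESeq2 without the block. Most large differences were not shared by the pairs. Of 13176 genes with at least 2 CPM in 2 of the 4 libraries, 1407 were at least 2-fold higher and 655 at least 2-fold lower in pair 1, against 474 and 208 in pair 2. Both pairs shared 93 genes at least 2-fold higher (0.706% of the 13176), which is 6.61% of those of pair 1 and 19.6% of those of pair 2, and 25 genes at least 2-fold lower (0.19%), or 3.82% and 12%. A further 101 genes were at least 2-fold apart in opposite directions, 41 of them higher in pair 1. Across genes, which are not independent replicates, the pair ratios had a Pearson correlation of 0.051 and a Spearman correlation of 0.076.

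**Figure D1:**
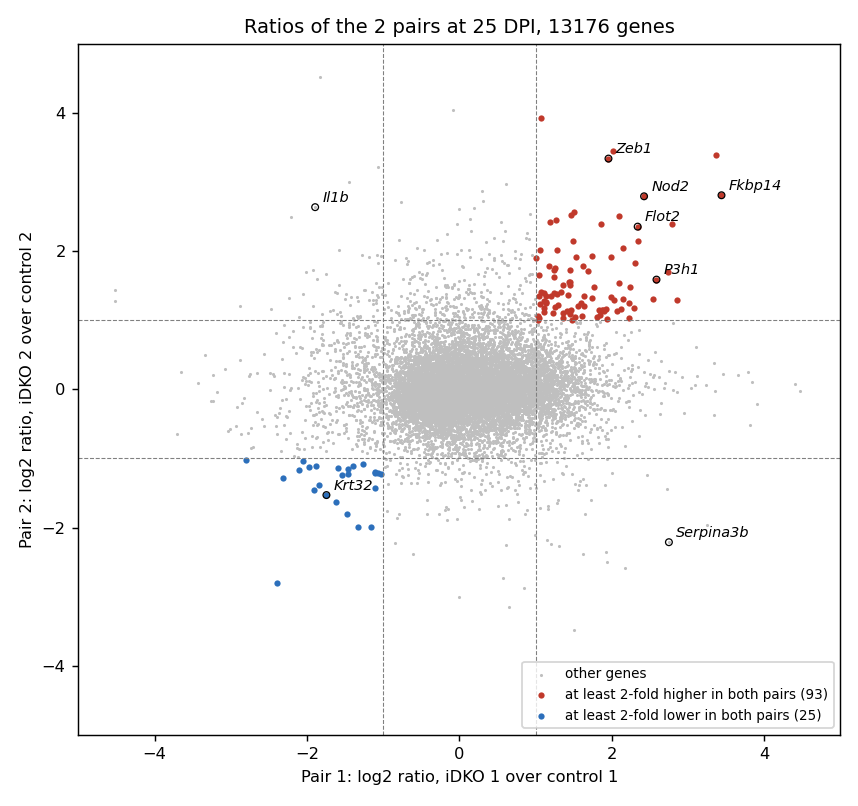
Log2 ratio of iDKO over control in pair 1 (horizontal axis) and pair 2 (vertical axis) for 13176 genes, with dashed lines at a 2-fold difference. The 93 genes higher in both pairs are red and the 25 lower in both are blue, and pair 1 is the more widely spread.

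edgeR's quasi-likelihood test on all 8 libraries, without a block, called 0 of 17839 genes (0%), with 75 genes at an unadjusted p under 0.05. The block within time left the count at 0, with 1162 genes (867 higher and 295 lower) reaching an unadjusted p of 0.05. limma-voom called 0 with and without the block, and DESeq2 without the block called 2, Zeb1 and Fkbp14. The same block in DESeq2 gave 96 called genes at an adjusted p under 0.05, 86 higher (0.584% of 14726 with an adjusted p) and 10 lower (0.0679%). Apart from Zeb1 and Fkbp14, the called genes described below rest on DESeq2 with the block. That fit on the 4 libraries of 25 DPI alone called 37 genes, of which 33 were among the 96, and calls lost there are given below as lost on the 4 libraries. These p-values rest on the spread between the samples at hand, with 2 pairs at this time. In each method the spread of a gene is estimated with help from that of other genes. In the fits on all 8 libraries that spread was pooled with the libraries of 52 DPI. With the block, 2 residual degrees of freedom (libraries beyond the fitted terms) remained, and 1 on the 4 libraries of 25 DPI alone. The tests of edgeR and limma-voom allow for so few degrees of freedom, and that of DESeq2 does not. With the block on 8 libraries the smallest adjusted p was 0.247 by edgeR, 0.137 by limma-voom and 7.09e-14 by DESeq2. The 96 calls thus depend on the method.

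Of the 86 genes called higher, 58 were at least 2-fold higher in both pairs. Both iDKO-labelled libraries lay above both controls for 37 of the 86 and for 962 of the 17839 tested genes (5.39%). They lay below both controls for 4 of the 10 called lower and for 918 tested genes (5.15%). The groups of the other called genes overlapped.

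When DESeq2 was run with pair 1 alone or pair 2 alone at 25 DPI, an alternative added after seeing the data in which the spread comes from the libraries at 52 DPI, it called 504 and 129 genes. The lists shared 15 genes, 12 with the same direction and all 12 higher, among them Flot2, Nod2, Zc3h12a, Dennd5a, Ehbp1l1, Csrnp1, Klf16, Midn, Per1 and Nfkbiz. The other 3 went in opposite directions, namely Rn7sk, H2-Ab1 and Apcdd1 (chosen after their values were seen). H2-Ab1, an MHC class II gene of Langerhans cells, had a log2 fold change of -1.19 in pair 1 and 1.94 in pair 2.

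**Figure D2:**
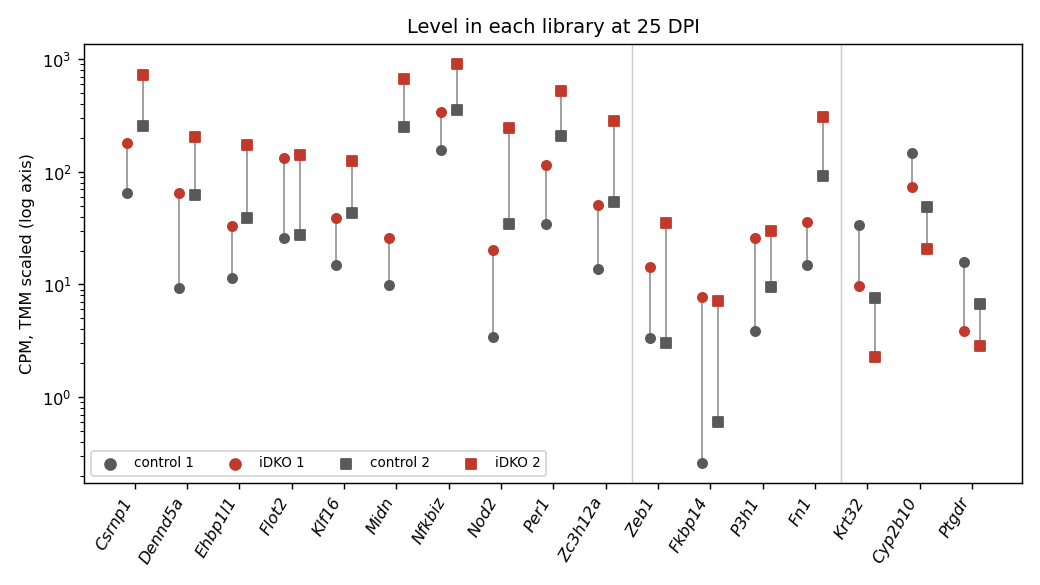
CPM on a log axis in each library at 25 DPI, circles for replicate 1 and squares for replicate 2, grey for control and red for iDKO, with a line joining each pair. The 10 genes on the left were called higher in each pair alone, the next 4 were called with both pairs, and the 3 on the right were called lower.

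Flot2 (ENSMUSG00000061981), which encodes a scaffold protein of membrane microdomains, had the smallest adjusted p of the 96 genes. It was at 25.8 and 27.4 CPM in the controls and at 132.3 and 142.1 CPM in the iDKO-labelled libraries, so replicates lay close and the groups were far apart. Its log2 fold change was 2.36 (SE 0.27, adjusted p = 7.09e-14, DESeq2 with the block), and 2.37 (SE 0.61, adjusted p = 1) by edgeR without it.

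Dennd5a, an activator of Rab proteins in membrane traffic, was at 9.22 and 61.9 CPM in the controls and at 64.4 and 201.9 CPM in the iDKO-labelled libraries, with pair ratios of 2.74 and 1.70 (adjusted p = 4.56e-07, DESeq2 with the block). Ehbp1l1, another protein of vesicle transport, was at 11.4 and 38.7 CPM against 33.2 and 173.1 CPM, and its ratio in pair 2 was 2.15. The groups did not overlap for Dennd5a, whereas control 2 lay above iDKO 1 for Ehbp1l1.

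Nod2, an intracellular sensor of bacterial cell walls that signals to NF-kappaB, was at 3.40 and 34.6 CPM in the controls and at 20.4 and 242.7 CPM in the iDKO-labelled libraries. The groups overlapped, since control 2 lay above iDKO 1, but the pair ratios were alike at 2.42 and 2.80 (adjusted p = 7.7e-08, DESeq2 with the block). Zc3h12a, a ribonuclease that degrades cytokine mRNAs and is induced by NF-kappaB, was at 13.7 and 53.6 CPM against 51.1 and 283.6 CPM. Its pair ratios were 1.86 and 2.39 (adjusted p = 6.71e-09 in the same fit). Nfkbiz, an atypical inhibitor of the family that also activates some of its targets, was at 155.3 and 354.5 CPM against 340.9 and 908.2 CPM, with pair ratios of 1.13 and 1.36.

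Other genes called in each pair alone are regulators of transcription and protein turnover whose replicates lay far apart. Midn, which directs nuclear proteins to the proteasome, was at 9.94 and 252.0 CPM in the controls and at 25.8 and 672.1 CPM in the iDKO-labelled libraries, and Per1, a repressor of the circadian clock, at 34.3 and 208.2 CPM against 115.4 and 521.1 CPM. Csrnp1, a nuclear protein of the immediate early kind, was at 65.1 and 256.4 CPM against 178.5 and 728.6 CPM. For these genes the gap between replicates exceeded that between genotypes, and the pair ratios, 1.33 and 1.41 for Midn, 1.74 and 1.32 for Per1 and 1.45 and 1.51 for Csrnp1, are what the block compares. Leaving out 1 library, which breaks a pair, turned edgeR's direction for Midn (from -2.32 to 5.17), Per1 (from -0.05 to 3.25) and, further below, Fn1 (from -0.54 to 3.55). Klf16, a Kruppel-like factor, had pair ratios of 1.36 and 1.51. The calls of Klf16 and, as given below, Nfkbiz were lost on the 4 libraries (adjusted p = 0.0675 and 0.116, DESeq2 with the block).

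Zeb1, the mesenchymal transcription factor that Ovol proteins are known to repress, was at 3.33 and 3.04 CPM in the controls and at 14.4 and 35.3 CPM in the iDKO-labelled libraries. The groups did not overlap and the controls were nearly equal (log2 fold change 2.85, SE 0.46, adjusted p = 7.74e-07, DESeq2 with the block). The rise was smaller in pair 1, with pair ratios of 1.96 and 3.34. In that fit 0.584% of all genes were called higher. Of the 9 tested genes of the list of mesenchymal transition factors, Zeb1 was the only one called in it. Zeb2, its paralog, was at 3.14 and 1.45 CPM against 0.23 and 1.31 CPM, with pair ratios of -2.32 and -0.11, and the list's pair medians were -0.02 and -0.04.

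In the list of collagen and procollagen processing 3 of 24 tested genes were called higher and 0 lower by DESeq2 with the block, where 0.584% of all genes were called higher. Fkbp14, whose product helps fold procollagen in the endoplasmic reticulum, was nearly silent in the controls, at 0.26 and 0.60 CPM, and at 7.76 and 7.18 CPM in the iDKO-labelled libraries. The counts behind these controls were 4 and 30 reads. P3h1 was at 3.86 and 9.51 CPM against 25.7 and 29.6 CPM, without overlap (adjusted p = 0.000119, DESeq2 with the block). Col1a2, a chain of type I collagen, was at 2.81 and 15.6 CPM against 5.82 and 50.7 CPM (adjusted p = 0.0327 in that fit, 0.213 with a correction for gene length and 0.432 on the 4 libraries).

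The list's pair medians were 0.29 and 0.38, where those of all tested genes were 0 and -0.01. Of 22 tested mesenchymal effectors 2 were called higher and 0 lower, beside the same 0.584%, and the pair medians were 0.45 and 0.27. Fn1, fibronectin, was at 14.97 and 91.37 CPM against 36.2 and 304.8 CPM (adjusted p = 0.000677, DESeq2 with the block), and Itga5, the chain of its main integrin receptor, at 2.42 and 10.1 CPM against 11.4 and 25.3 CPM (adjusted p = 0.00545, and 0.204 on the 4 libraries). Mmp2, a matrix protease, had pair ratios of 0.66 and 1.02 and was not called. Thbs1, the matrix glycoprotein thrombospondin 1, was called as well (adjusted p = 0.00714), at 50.8 and 1720 CPM against 184.3 and 3633 CPM, and replicate 2 far exceeded replicate 1 in both groups.

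Markers of dermal fibroblasts, cells that make collagen and fibronectin and could be carried into an epidermal isolate, were compared too. The 14 tested markers had pair medians of 0.22 and 1.07, with 8 higher in pair 1 and 12 in pair 2. In both pairs 6 were higher and 0 lower, and 1 was called, Col1a2, which is also in the collagen list. By edgeR without the block 13 of the 14 were higher. The median log2 fold change was 1.065 in that fit, against -0.03 over all tested genes. It was 0.342 for the collagen list and 0.266 for the mesenchymal effectors. The summed level of the 14 markers was 2247 and 1981 CPM in the controls and 2474 and 2042 CPM in the iDKO-labelled libraries. Most of it came from Gsn, which keratinocytes express too. The markers Lum, Dpt, Pdgfra and Pdgfrb were at 0 to 1.85 CPM in every library, and Dcn at 0.57 to 8.2 CPM. The part of these cells in the matrix genes was not tested. In bulk RNA more cells of a type cannot be told from more RNA per cell.

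The TGF-beta pathway, a known driver of the mesenchymal state, had 0 of 19 tested members called and pair medians of 0.53 and 0.26. By edgeR with the block 4 of the 19 were higher at an unadjusted p under 0.05, beside 867 of all 17839 tested genes. The ligand gene Tgfb1 was at 14.6 and 30.4 CPM against 32.5 and 50.3 CPM, above both controls in both iDKO-labelled libraries. It was not called (adjusted p = 0.156, DESeq2 with the block). Tgfbr1, a receptor, had pair ratios of 0.95 and 0.48, and Bmp2, a ligand of the same superfamily, 1.07 and 0.34.

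NF-kappaB targets and regulators had higher values in most members. Of 20 tested members 4 were called higher and 0 lower by DESeq2 with the block, where 0.584% of all genes were called higher. On the 4 libraries 1 of these 4 calls remained, that of Tnfaip3 (adjusted p = 0.00874), and those of Nfkbiz (0.116), Icam1 (0.0848) and Nfkb2 (0.608) were lost. Across the list 14 had higher values and 1 had lower values in both pairs. The pair medians were 0.44 and 1.12, and edgeR's median log2 fold change was 0.99 against -0.03 over all tested genes. With the ratios corrected for gene length the medians were 0.40 and 1.13.

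The called members were Nfkbiz, Tnfaip3, Icam1 and Nfkb2. Tnfaip3, which encodes the inhibitory enzyme A20, was at 68.6 and 153.5 CPM in the controls and at 156.5 and 828.3 CPM in the iDKO-labelled libraries (adjusted p = 0.00342, DESeq2 with the block; chosen after its values were seen). Icam1, an adhesion molecule for leukocytes, was at 77.9 and 184.0 CPM against 160.5 and 583.9 CPM (adjusted p = 0.0138 in that fit). Nfkb2, a subunit of the family, was at 37.9 and 139.8 CPM against 68.9 and 296.6 CPM (adjusted p = 0.0359, and 0.0767 with a correction for gene length). In each of these 3 genes iDKO 2 was highest and control 1 lowest.

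Of 27 tested genes of cytokine and JAK-STAT signalling 1 was called higher, beside 0.584% of all genes. It was Il4ra, a receptor chain for IL-4 and IL-13, with pair ratios of 0.90 and 1.02 (adjusted p = 0.0403, DESeq2 with the block), and its call was lost with the length correction (0.155) and on the 4 libraries (0.687). Il6 was at 2.29 and 1.45 CPM in the controls and at 8.10 and 6.24 CPM in the iDKO-labelled libraries, without overlap, and was not called (adjusted p = 0.157). Stat3, which transmits IL-6 signals, had pair ratios of 0.74 and 1.05 and was not called (adjusted p = 0.0717). Il12rb2, a receptor chain for IL-12 that is not counted in this list, was called, at 9.54 and 87.3 CPM against 72.0 and 215.2 CPM. Ccl20, a chemokine for cells with the receptor CCR6 and also not counted in it, was at 9.54 and 1.61 CPM against 23.6 and 11.1 CPM. It was called (adjusted p = 0.0375, DESeq2 with the block). That call was lost with the second-strand column (0.051) and on the 4 libraries (0.0943). Outside the list as well, Csf2rb and Csf2rb2, near-identical receptor chains for IL-3 and related cytokines, were called higher (adjusted p = 0.00778 and 0.0359, DESeq2 with the block on 8 libraries). Their reads may not be separable. Both were chosen after their values were seen, and their values on the 4 libraries are not given here.

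Epgn, a ligand of the EGF receptor, had pair ratios of 1.23 and 1.10, and Fzd5, a Wnt receptor, 1.14 and 1.26. Each was the 1 gene called of its list, of 17 tested genes of the EGF receptor family and 30 of the Wnt pathway, beside 0.584% of all genes, and both calls were lost on the 4 libraries (adjusted p = 0.266 and 0.47, DESeq2 with the block). Fzd8, another Wnt receptor, was called outside the list (adjusted p = 0.0413, DESeq2 with the block). It was chosen after its values were seen, and its value on the 4 libraries is not given here. Sesn2, a stress-induced inhibitor of mTORC1, was at 26.3 and 54.9 CPM in the controls and at 55.2 and 224.5 CPM in the iDKO-labelled libraries. It was called (adjusted p = 0.00135, DESeq2 with the block). Wnt5a, a Wnt ligand, was not called (adjusted p = 0.0793, DESeq2 with the block).

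Soga1, a protein of microtubules, had pair ratios of 1.45 and 1.73, and Lix1l of 2.02 and 3.45. Ccdc88a was at 11.57 and 7.604 CPM in the controls and at 34.2 and 30.0 CPM in the iDKO-labelled libraries, without overlap, and Fez1 at 2.35 and 0.28 CPM against 11.6 and 3.92 CPM. These 4 genes were called higher by DESeq2 with the block. Pla2r1, a receptor for secreted phospholipase A2, had pair ratios of 1.74 and 1.94, and its call was lost on the 4 libraries (adjusted p = 0.205, DESeq2 with the block).

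Promoter sequence is shown for 4 genes called higher that hold CCGTTA, the known core of the Ovol recognition sequence, near a start site. The windows run from 250 bases before to 50 bases after a start site, from RefSeq on GRCm38.p6, and are written 5′ to 3′ on the strand of the gene, with CCGTTA in capitals.
Ccdc88a: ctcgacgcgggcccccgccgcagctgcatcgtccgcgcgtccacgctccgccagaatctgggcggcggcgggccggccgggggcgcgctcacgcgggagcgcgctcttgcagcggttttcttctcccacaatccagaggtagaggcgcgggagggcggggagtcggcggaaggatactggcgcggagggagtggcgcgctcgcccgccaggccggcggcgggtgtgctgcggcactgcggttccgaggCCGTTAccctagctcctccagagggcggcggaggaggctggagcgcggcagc
Lix1l: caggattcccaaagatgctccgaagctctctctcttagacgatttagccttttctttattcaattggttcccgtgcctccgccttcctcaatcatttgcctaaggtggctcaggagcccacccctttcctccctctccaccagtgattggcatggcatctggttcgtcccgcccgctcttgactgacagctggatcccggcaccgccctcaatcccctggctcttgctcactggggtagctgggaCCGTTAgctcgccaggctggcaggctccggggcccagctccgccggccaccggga
Fez1: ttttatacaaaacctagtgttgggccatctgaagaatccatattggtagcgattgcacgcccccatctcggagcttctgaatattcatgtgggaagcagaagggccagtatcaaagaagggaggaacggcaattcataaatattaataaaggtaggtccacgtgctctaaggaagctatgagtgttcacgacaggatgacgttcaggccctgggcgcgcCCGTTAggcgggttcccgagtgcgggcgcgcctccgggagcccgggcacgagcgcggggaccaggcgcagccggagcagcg
P3h1: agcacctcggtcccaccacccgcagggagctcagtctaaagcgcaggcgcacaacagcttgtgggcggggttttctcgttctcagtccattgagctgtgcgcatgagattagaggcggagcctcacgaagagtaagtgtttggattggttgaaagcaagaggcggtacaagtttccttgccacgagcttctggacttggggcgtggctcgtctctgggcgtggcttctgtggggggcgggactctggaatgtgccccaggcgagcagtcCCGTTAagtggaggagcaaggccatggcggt
The windows are chr11:29373408-29373707 for Ccdc88a, chr3:96600883-96601182 for Lix1l, chr9:36832490-36832789 for Fez1 and chr4:119232665-119232964 for P3h1, all on the plus strand. The word begins 2 bases before the start of Ccdc88a, 5 before that of Lix1l and 31 before that of Fez1, and at base 20 of the P3h1 transcript. Fez1 has a second window with the word. These genes encode girdin, an actin-binding protein of migrating cells (Ccdc88a), an RNA-binding protein (Lix1l), an adaptor of microtubule transport (Fez1) and a prolyl 3-hydroxylase of procollagen (P3h1).

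Of the 93 genes at least 2-fold higher in both pairs, 67 had a window, and 11 of these (16.42%) held CCGTTA or its reverse complement TAACGG. The share was 4.19% over the 11783 tested genes with a window (494 genes), and 2.76% over all 32851 windows. Among genes at least 2-fold higher in pair 1 only it was 3.44% (34 of 988), in pair 2 only 4.43% (12 of 271), and among the 18 genes with a window that were at least 2-fold lower in both pairs it was 0. Of the 86 genes called higher by DESeq2 with the block, 63 had a window and 6 held the word (9.52%). Zeb1, Flot2, Nod2 and Zc3h12a were not among the 6, and which of them had a window is not given here. Besides the 4 genes shown, the holders called higher included Etv5, an ETS transcription factor, and Dmwd. Both calls were lost on the 4 libraries (adjusted p = 0.416 and 0.538, DESeq2 with the block). Tnc, which encodes the matrix protein tenascin-C, held the word among the 93 genes. It was not called (adjusted p = 0.0521, DESeq2 with the block on 8 libraries). Etv5, Dmwd and Tnc were chosen after their values were seen.

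This was 1 of 10 words searched on both strands after the values had been seen, and the shares carry no test. A gene was counted if any of its windows held the word, a rule adopted after a first count on 1 window per gene, which gave 14.93% (10 of 67), 7.94% (5 of 63) and, over all tested genes, 3.43%. For the 67 genes higher in both pairs against all tested genes, the shares were 2.99% against 6.37% for the Ovol variant TGTTAC, 20.9% against 22.02% for the E-box CACCTG, which Zeb1 and Snail proteins bind, 13.43% against 11.05% for CACGTG and 4.48% against 4.97% for the AP-1 word TGACTCA. The NF-kappaB words GGGAAATCC and GGGGATTCC and the ATF words TGATGCAA and ATTGCATCA, which overlap each other, were in 0 of the 67 and 0 of the 63. A further NF-kappaB word of 10 bases was in 0 of the 67 and in 2 of the 63 (3.17% against 0.23%). A match describes letters in a window and not a bound site. CCGTTA holds the bases CG, and the windows were not matched for base composition. Genes called higher had a median GC content of 54.72% in their longest transcript, against 49.53% over all tested genes. Whether GC content plays a part in these shares was not tested.

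Genes called lower were fewer, 10 in all, of which 4 are pseudogenes or unnamed predicted genes. Krt32, a hair keratin, was at 33.7 and 7.55 CPM in the controls and at 9.70 and 2.29 CPM in the iDKO-labelled libraries (adjusted p = 0.0138, DESeq2 with the block, and 0.0942 on the 4 libraries), and Cyp2b10, a cytochrome P450, at 148.2 and 49.0 CPM against 72.7 and 20.7 CPM, both with iDKO 1 above control 2. Cyp2b10 was at an adjusted p of 0.0344 in that fit, and of 0.295 on the 4 libraries. Aldh1a1 and Aldh1a7, near-identical aldehyde dehydrogenases whose reads may not be separable, had pair ratios of -1.98 and -1.13 and of -1.55 and -1.23 and were not called (adjusted p = 0.0543 and 0.0507, DESeq2 with the block).

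Among the genes called lower were 2 known from lymphoid cells. Tcrg-C2, a constant region of the gamma chain of the T-cell receptor, was at 17.6 and 3.55 CPM in the controls and at 4.33 and 0.98 CPM in the iDKO-labelled libraries, and Ptgdr, a prostaglandin D2 receptor of lymphoid cells, at 15.7 and 6.69 CPM against 3.88 and 2.83 CPM. Both were called by DESeq2 with the block (adjusted p = 0.0375 and 0.039), and Ptgdr did not overlap between groups. The call of Tcrg-C2 was lost with the length correction (adjusted p = 0.0751), the second-strand column (0.0592) and on the 4 libraries (0.249). That of Ptgdr was lost with the second-strand column (0.0501), no filter (0.0526) and on the 4 libraries (0.537).

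Of 20 tested T-cell markers 17 had lower and 1 had higher values in both pairs, and 0 were called. By edgeR with the block 8 of the 20 were lower at an unadjusted p under 0.05, beside 295 of all 17839 tested genes. The pair medians were -1.62 and -0.54. Control 1 stood apart, with a summed level of 1335 CPM, beside 413.8 CPM for control 2 and 456.2 and 346.2 CPM under the iDKO label. Cd8a, the coreceptor of cytotoxic T cells, was at 55.0 and 4.41 CPM against 3.76 and 2.65 CPM, and Cxcr6, a chemokine receptor of resident T cells, at 111.2 and 6.63 CPM against 15.9 and 4.10 CPM. Sash3, an adaptor of lymphocytes, was at 12.9 and 8.10 CPM against 3.88 and 2.29 CPM, without overlap, and was not called (adjusted p = 0.0976).

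**Figure D3:**
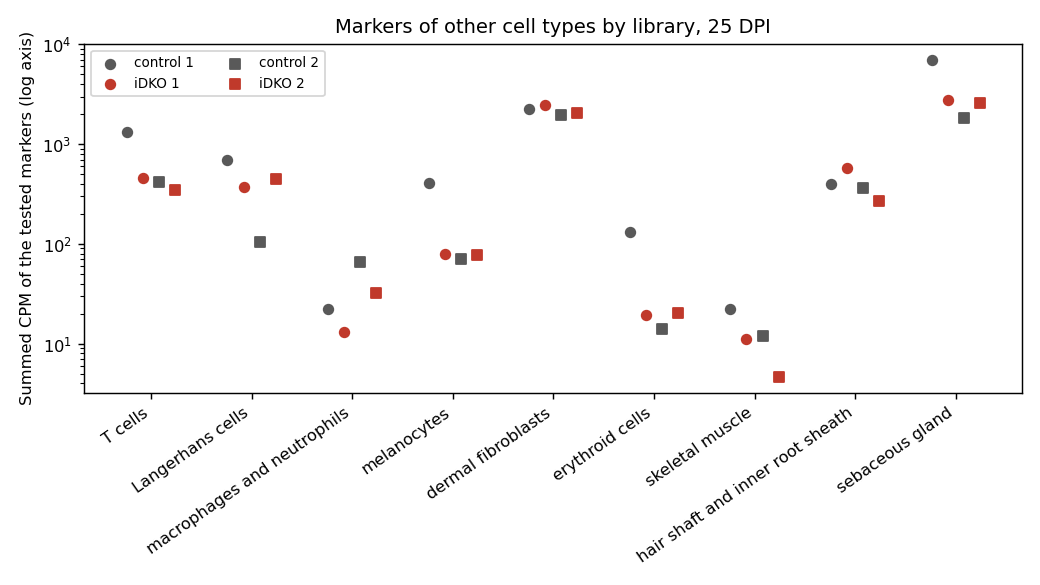
Summed CPM, on a log axis, of the tested markers of 9 other cell types in the 4 libraries at 25 DPI, circles for replicate 1 and squares for replicate 2, grey for control and red for iDKO. Control 1 is highest for T cells, Langerhans cells, melanocytes, erythroid cells, skeletal muscle and sebaceous gland.

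The part of other cell types in the calls was not tested. Melanocyte markers summed to 406.9 CPM in control 1 and to 70.6 to 78.6 CPM in the other 3 libraries, and erythroid markers to 132.0 CPM and to 13.9 to 20.3 CPM. The pair medians were -2.35 and 0.15 for melanocytes and -3.76 and 0.25 for erythroid cells. Langerhans cell markers, those of the antigen-presenting cells of the epidermis, had pair medians of -0.65 and 1.55, with the lowest sum in control 2 (104.6 CPM against 368.2 to 694.8 CPM). The 4 tested markers of skeletal muscle had lower values in both pairs, with pair medians of -1.26 and -0.78 and 0 called. They summed to 22.03 and 12.01 CPM in the controls and to 11.2 and 4.64 CPM under the iDKO label. By edgeR with the block 3 of the 4 were lower at an unadjusted p under 0.05, beside 295 of all 17839 tested genes.

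Single genes with opposite pair ratios are given by the first 2 of the 6 genes that the naming rule took in each arrangement. Il1b, an inflammatory cytokine, was at 6.86 and 0.93 CPM in the controls and at 1.48 and 8.42 CPM in the iDKO-labelled libraries, and Atp6v1b1, a subunit of a proton pump, had pair ratios of -1.87 and 1.59. In the other arrangement Serpina3b and Serpina3j, near-identical protease inhibitors of the same cluster, had pair ratios of 2.75 and -2.21 and of 3.25 and -1.97. These genes differed by at least 2-fold in each pair without a common direction.

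Keratinocyte lists differed between the pairs. The 17 keratinocyte identity genes had pair medians of 0.95 and -0.04, and 0 were called. Itgb4, the integrin of hemidesmosomes, rested on pair 1, at 56.2 and 839.3 CPM against 262.2 and 847.9 CPM, whereas Krt15, a keratin of basal and follicle stem cells, was at 18210 and 8026 CPM against 13280 and 4052 CPM, with pair ratios of -0.46 and -0.99. The 28 tested genes of spinous and granular differentiation had pair medians of -0.17 and 0.72, and 23 of them were higher in pair 2. Cdsn, an adhesive protein of the cornified layer, had pair ratios of 0.38 and 1.96, and Cnfn, a protein of the cornified envelope, of 0.91 and 2.18. Neither was called.

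Of 29 tested genes of epithelial junctions 0 were called, and the pair medians were 0.58 and 0.13. By edgeR with the block 4 of the 29 were higher at an unadjusted p under 0.05, beside 867 of all 17839 tested genes. Jup, the junction protein plakoglobin, had pair ratios of 1.27 and 0.37. Vcl, which links adhesions to actin, had pair ratios of 1.51 and 0.77 (adjusted p = 0.0717, DESeq2 with the block). Cholesterol synthesis genes had opposite signs in the pairs, with 17 of 21 lower in pair 1 and 20 of 21 higher in pair 2 (medians -0.38 and 0.69).

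**Figure D4:**
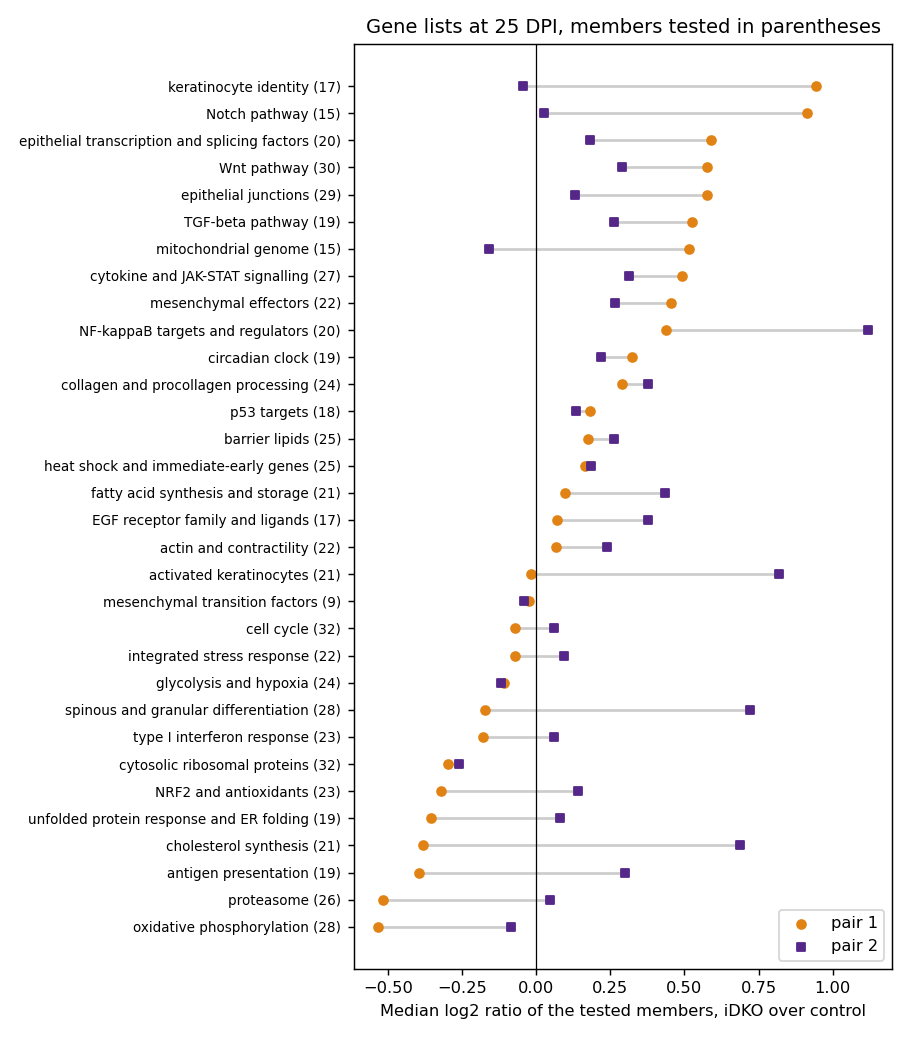
Median log2 ratio of iDKO over control of the tested members of 32 gene lists, as circles for pair 1 and squares for pair 2, joined by a line. NF-kappaB targets lie at 0.44 and 1.12, and cholesterol synthesis at -0.38 and 0.69.

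Cytosolic ribosomal protein genes had lower values for 32 of 32 tested members in each pair, by little, and 0 were called (0 also at an unadjusted p under 0.05 by edgeR with the block). The pair medians were -0.30 and -0.26. Rpl32 was at 986.9 and 787.3 CPM in the controls and at 758.3 and 613.3 CPM in the iDKO-labelled libraries, and Rpl18 at 893.5 and 776.3 CPM against 610.3 and 645.7 CPM, both without overlap. With the ratios corrected for gene length the medians were -0.07 and -0.22, and 24 of 32 remained lower in pair 1 and 32 in pair 2. Genes of oxidative phosphorylation were lower in 28 of 28 in pair 1 and 15 of 28 in pair 2 (medians -0.53 and -0.09), with Ndufb5, a subunit of complex I, at 143.4 and 34.1 CPM against 92.3 and 27.7 CPM. Those of the proteasome were lower in 25 of 26 in pair 1 and 7 of 26 in pair 2.

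Pair 1 ratios moved with gene length, and both pairs with GC content and with the difference between replicates. From the lowest to the highest quintile of GC content the median ratio ran from -0.004 to 0.152 in pair 1 and from -0.066 to 0.062 in pair 2. These 2 quintiles held 8 and 36 of the genes called higher. From the shortest to the longest quintile of exonic length the median ratio ran from -0.31 to 0.42 in pair 1 and from -0.06 to 0.03 in pair 2. Ranked by the ratio of replicate 2 to replicate 1 in the controls at 52 DPI, libraries that enter neither pair, the medians of the lowest and highest quintiles were -0.21 and 0.40 in pair 1 and -0.09 and 0.07 in pair 2. Of the 86 genes called higher, 62.8% were above 0 on that ratio, against 45.6% of the 13176 genes, and their median exonic length was 4965 bases against 4296 over the 13176. The highest quintile of the ratio at 52 DPI held 37 of the 93 genes higher in both pairs. In the controls that enter the pairs, the median log2 ratio of replicate 2 to replicate 1 was 1.621 for genes called higher. It was -2.122 for genes called lower and 0.095 over the 13176. The part of these differences in the calls was not tested beyond a correction for length, an alternative added after seeing the data, with which DESeq2 with the block called 73 genes, 68 of them among the 96, and 77 genes were at least 2-fold higher in both pairs.

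**Figure D5:**
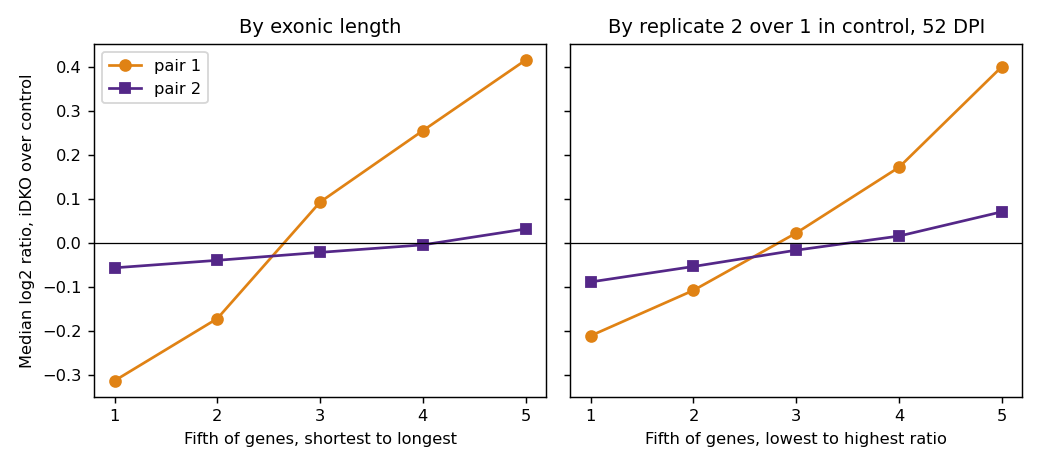
Median log2 ratio of iDKO over control for quintiles of the 13176 genes, ordered by exonic length (left) and by the ratio of replicate 2 to replicate 1 in control at 52 DPI (right), for pair 1 (circles) and pair 2 (squares). Pair 1 rises from -0.31 to 0.42 with length, and pair 2 from -0.06 to 0.03.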

How the data were processed

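Raw counts of reads per gene were deposited by the authors, 1 table per library, with 3 count columns in the layout of STAR, without regard to strand and by strand. The tools named, per the submitters' processing notes, are STAR 2.5.2a, DESeq2 1.24.0, Trimmomatic 0.35 and FastQC 0.11.9 and the builds GRCm38 and mm10, with settings not given in the sources used here. Reads counted without regard to strand were used. Symbols were matched by identifier for 54809 genes.

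Genes were filtered with filterByExpr, scaled by TMM and tested with edgeR 4.0.16 (R 4.3.3) on 8 libraries with 1 mean per group, with Benjamini-Hochberg adjustment over 17839 genes. DESeq2 1.42.0 and limma 3.58.1 were alternatives. DESeq2 gave no adjusted p for 3113 genes. Deviations of replicates from their group means correlated between groups at 0.403 to 0.831 in all 6 pairs of groups, so the replicate numbers of the labels were taken to pair libraries. List medians cover tested members, 884 genes in 32 function and 15 cell type lists before the filter.

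The rule for naming genes took the targets, up to 20 genes higher and 15 lower by adjusted p from DESeq2 with the block, up to 12 per direction by the smaller pair ratio, up to 8 per direction among the 300 most abundant, up to 6 per opposite arrangement and up to 3 per list. Members, lists and words were chosen with earlier results of these data known. Of 136 genes this gave, 60 were tabulated for the text with 7 chosen after their values were seen, a choice that favoured genes stable across settings. Some genes that the rule gave are not reported here. MicroRNA seed words were also searched and are not reported. The scripts were tested on simulated data. Alternatives are in the closing section.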

Additional observations from a re-analysis of the deposited data

How the results depend on the processing

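The count of genes called by edgeR, 0, stayed 0 with the replicate block within time, the replicate block across both times, RLE scaling, the second-strand column, the 4 libraries of 25 DPI alone, each library left out in turn, limma-voom and the length correction. It was 8 with no filter, 1 with the replicate block on the 4 libraries, 2 with DESeq2, 96 with DESeq2 and the replicate block within time and 37 with that block on the 4 libraries. The 96 became 504 without pair 2, 129 without pair 1, 39 and 42 without the pair of replicate 1 or 2 at 52 DPI, 73 with the length correction, 89 with the second-strand column and 94 with no filter. The 93 genes higher in both pairs became 57 with a prior of 2 CPM and 55 with a minimum of 10 CPM, and stayed within 1.5 times otherwise (77 to 119). The 25 lower became 45 with a prior of 0.1 CPM, 5 with a prior of 2 CPM, 3 with a minimum of 10 CPM and 40 with no minimum. The causes were not tested. Leaving out 1 library breaks a pair, and turned the edgeR direction of these genes: Ovol2 (-0.051 to 1.34), Per1 (-0.048 to 3.25), Midn (-2.32 to 5.17), Soga1 (-0.47 to 3.83), Fn1 (-0.54 to 3.55), Thbs1 (-2.23 to 5.27), Serpina3b (-1.66 to 1.96), Serpina3j (-1.63 to 2.54), Il1b (-1.40 to 2.41), Atp6v1b1 (-1.31 to 1.29), Krt15 (-1.61 to 0.052), Itgb4 (-0.74 to 3.34), Tgfbr1 (-0.20 to 1.84), Bmp2 (-0.082 to 1.68), Col1a2 (-0.64 to 3.37), Jup (-0.025 to 1.79), Vcl (-0.80 to 3.28), Epgn (-0.063 to 2.499), Il4ra (-0.088 to 2.04), Nfkb2 (-0.35 to 2.31), Ndufb5 (-1.59 to 0.75), Fzd5 (-0.37 to 2.92), Tnc (-0.11 to 3.26), Cd3g (-2.90 to 0.71), Cxcr6 (-3.73 to 0.52). Some alternative turned 25 of the 67 tabulated genes (2 outside such omissions) and 71 of all 136 that the naming rule gave (9 outside them). With limma-voom, without and with the replicate block, Serpina3b was at -0.022 and -0.14 and Atp6v1b1 at 0.20 and 0.24. Calls of Col1a2, Nfkb2, Il4ra, Fzd5, Cyp2b10, Tcrg-C2 and Pla2r1 were lost with the length correction. With 2 libraries a group and replicates far apart, low genes such as Fkbp14 rest on few reads.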
